A study of Homo sapiens with 4 samples.

Results

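FOXK1 peaks that were high in untreated HK-2 cells and low or missing after TGF-β1 were taken from the peak lists of chromatin immunoprecipitation with an antibody to FOXK1. A control peak was counted as strong at a height of 17 or more, the height being the deposited pileup of the peak. It was a member when the TGF-β1 list held no peak overlapping it by at least 1 bp, or when the highest overlapping TGF-β1 peak had a height of 7 or lower. Peaks on chromosomes 1 to 22 and X were used, and 1 Mb bins that overlapped no RefSeq protein-coding gene were left out. This gave 580 members among 10557 strong control peaks, a share of 5.49% (exact binomial 95% interval 5.07 to 5.95), out of 381673 control peaks of any height on these chromosomes. The members were chosen by the heights in both lists, so these are given as a description and were not tested.

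HK-2 is an immortalised line of human proximal tubular epithelial cells. The control group was HK-2 cells without TGF-β1 and the other group was HK-2 cells with 10 ng/ml TGF-β1 for 24 h, a cytokine that drives fibrotic responses of tubular cells. Of the 4 libraries, each group contributed 1 from the FOXK1 antibody and 1 of input chromatin. With no replicates, every difference given here is between 2 libraries and not between 2 conditions. Per the labels, the cells were fixed, and their chromatin was cut with micrococcal nuclease and sonicated before immunoprecipitation; nothing else is given that set the groups apart. The peak lists hold no expression values, so the cell type label was not checked against marker genes. Sequencing depth was unknown, and a given height need not be equally strict in both lists.

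FOXK1 is a forkhead transcription factor, a family whose winged-helix domain reads an AT-rich core motif written TGTTTAC, or GTAAACA on the opposite strand. It is known as a repressor of autophagy and starvation genes that recruits SIN3 complexes, and as a factor that promotes glycolytic genes. TGF-β1 acts through receptor kinases and SMAD proteins, and in the tubule it is known for matrix production and loss of epithelial junctions.

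The promoters below show the DNA under members at gene starts. They are RefSeq sequences of GRCh38.p14 that run from 250 bases before to 50 bases after the start of the transcript, in the direction of the gene. The forkhead motif is in capitals and all other bases are in lower case. The first pair holds the motif and the second pair, which holds none, belongs to the highest members at a promoter in this table.
ZBTB14: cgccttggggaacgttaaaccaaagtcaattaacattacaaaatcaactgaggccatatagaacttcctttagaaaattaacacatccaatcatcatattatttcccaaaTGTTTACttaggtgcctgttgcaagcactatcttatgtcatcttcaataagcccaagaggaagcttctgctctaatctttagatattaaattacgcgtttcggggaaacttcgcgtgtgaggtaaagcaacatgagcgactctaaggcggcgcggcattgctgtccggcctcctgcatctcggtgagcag
SPSB3: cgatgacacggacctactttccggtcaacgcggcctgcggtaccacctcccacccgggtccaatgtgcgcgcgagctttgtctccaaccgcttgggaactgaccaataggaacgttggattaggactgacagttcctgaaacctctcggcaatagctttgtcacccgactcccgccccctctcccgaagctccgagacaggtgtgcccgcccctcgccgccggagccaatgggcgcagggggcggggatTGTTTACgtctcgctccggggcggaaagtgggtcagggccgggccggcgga
YJU2: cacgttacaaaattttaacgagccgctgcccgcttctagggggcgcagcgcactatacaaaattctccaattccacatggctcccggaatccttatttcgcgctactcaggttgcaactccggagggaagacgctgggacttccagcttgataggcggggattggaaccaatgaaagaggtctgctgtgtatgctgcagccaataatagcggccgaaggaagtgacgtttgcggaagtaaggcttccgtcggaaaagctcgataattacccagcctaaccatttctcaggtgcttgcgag
EIF2S3: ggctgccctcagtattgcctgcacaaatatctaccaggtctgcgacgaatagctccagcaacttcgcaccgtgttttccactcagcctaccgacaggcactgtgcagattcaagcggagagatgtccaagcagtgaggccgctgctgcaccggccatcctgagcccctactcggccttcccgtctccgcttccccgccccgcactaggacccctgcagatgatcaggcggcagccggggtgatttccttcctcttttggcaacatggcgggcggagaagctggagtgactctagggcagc

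ZBTB14 encodes a BTB zinc finger transcription factor, and its window covers chr18:5297004-5297303 on the minus strand. The motif began 140 bases before the start and lay inside the member, which covered chr18:5295726-5297204 with a control height of 19 and a TGF-β1 height of 7. SPSB3 encodes a substrate receptor of a ubiquitin ligase and lies beside NUBP2 and EME2, whose ends the same peak reached. Its window covers chr16:1782522-1782821 on the minus strand. There the motif began 1 base before the start, inside a member at chr16:1781490-1783800 with heights of 18 and 6. YJU2 encodes a splicing factor, and its window at chr19:4246830-4247129 on the plus strand lay inside a member with a control height of 76 and no overlapping TGF-β1 peak. EIF2S3 encodes the gamma subunit of translation initiation factor eIF2, and its window at chrX:24054706-24055005 on the plus strand lay under a member with heights of 25 and 6.

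The motif was rare in promoters, both under members and among all protein-coding genes. Both TGTTTAC and GTAAACA were searched, which are the same motif on opposite strands and cannot overlap each other. Members overlapped promoter windows of 49 protein-coding genes, and 2 of the 49 held the motif in an overlapped window (4.08%, exact binomial 95% interval 0.498 to 14.0). Among 2415 genes whose promoters were overlapped by other strong control peaks the count was 182 (7.54%, 6.51 to 8.66). Among all 15812 protein-coding genes with a promoter sequence it was 594 (3.76%, 3.47 to 4.06). With 49 genes the interval of the members spans both of the other shares. The median GC content of the overlapped windows was 64.0% for members, 63.7% for other strong peaks and 62.3% for all windows. Windows on chromosome 8 were not used here.

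Most members were only slightly above the minimum height. Control heights ran from 17 to 466 with a median of 19, and 371 of the 580 were 17 to 19, 178 were 20 to 29 and 31 were 30 or more. The other 9977 strong peaks had a median of 23, and 2690 of them were 30 or more. Members made up 11.2% of strong control peaks of height 17 to 19 (10.2 to 12.3), 3.93% of those of 20 to 29 (3.38 to 4.54) and 1.14% of those of 30 or more (0.775 to 1.61). At the edge of the rule, 172 members had a control height of 17 and 181 had a TGF-β1 height of 7. Just outside it were 235 peaks of control height 16 with no TGF-β1 peak above 7, among them one in KIF1B, one in ASAP3 and one 9242 bp from OSCP1, each at 16 and 7. Another 224 strong peaks had a TGF-β1 height of 8, the highest of them at 32 and 8 on chromosome 13, at 31 and 8, 23965 bp from NMS on chromosome 2, and at 29 and 8, 1818 bp from HELLS on chromosome 10.

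Of the 580 members, 228 had no overlapping TGF-β1 peak (39.3%, 35.3 to 43.4) and 352 overlapped a weak one. By the rule, these 228 are all of the 10557 strong control peaks that lacked an overlapping TGF-β1 peak. The 39.3% depends on the TGF-β1 limit of 7, and the share among control peaks of any height is not given. The weak TGF-β1 peak had a height of 4 at 15 members, 5 at 43, 6 at 113 and 7 at 181. Its midpoint lay a median of 122 bp from that of the member, against 133 bp for the other strong peaks. Overlap was required at all of these sites, which limits these distances. The weak TGF-β1 peaks had a median width of 478 bp, against 862 bp for those at the other strong peaks. The control height was 2.43 to 7.25 times the TGF-β1 height at these 352 sites, a range that the rule itself limits. For the 228 without overlap, the gap to the nearest TGF-β1 peak had a median of 1711 bp and ran from 8 to 110951 bp. It was 500 bp or less at 49 of them, and 15 had no TGF-β1 peak within 10 kb. These gaps were not compared with those of other sites. A TGF-β1 peak of height 15 or more lay within 10 kb of 79 of the 228 (34.6%) and of 72 of the 352 (20.5%). The share was 77.7% for the other strong peaks, where the overlapping TGF-β1 peak itself could count.

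**Figure D1:**
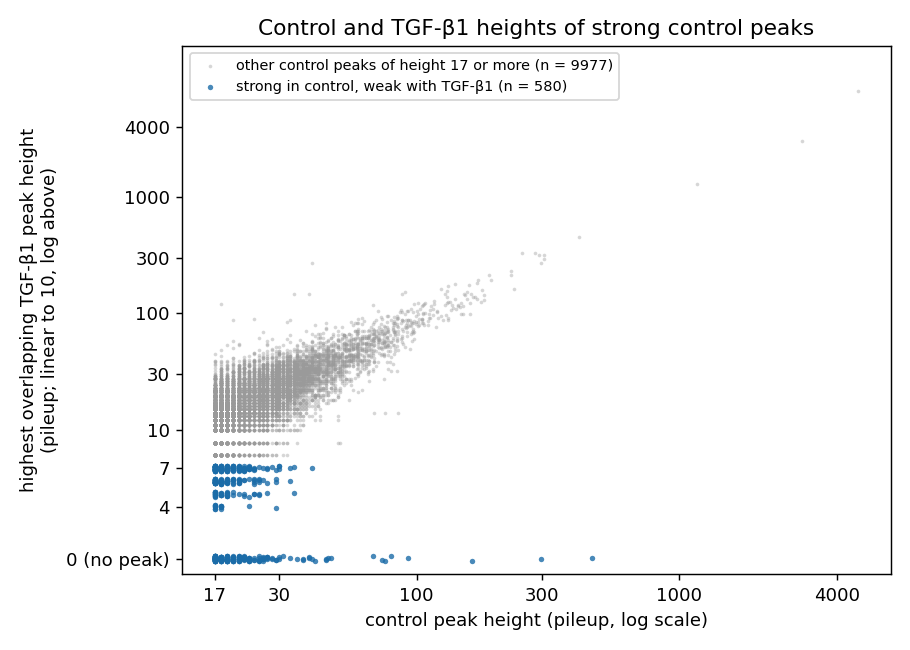
Control height (x axis, log scale) against the height of the highest overlapping TGF-β1 peak (y axis, linear to 10 and log above) for 10557 strong control peaks. The 580 members (blue, jittered slightly in height) lie at 0 or from 4 to 7, and the rule sets the upper limit of 7. All but 31 of them have control heights under 30, while the other peaks (grey) follow a rising band.

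Members were narrower than the other strong control peaks. The median width was 468 bp for members without an overlapping TGF-β1 peak, 648 bp for those with a weak one and 881 bp for the other 9977. Within heights of 17 to 19 the medians were 563 bp for members and 787 bp for the others, and within 20 to 29 they were 599 and 880 bp. Widths under 300 bp were found at 35 of the 228 members without overlap (15.4%), at 1 of the 352 with a weak peak and at 12 of the 9977 others (0.120%). Width and height come from the same pileup, so width is not independent of the rule.

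**Figure D2:**
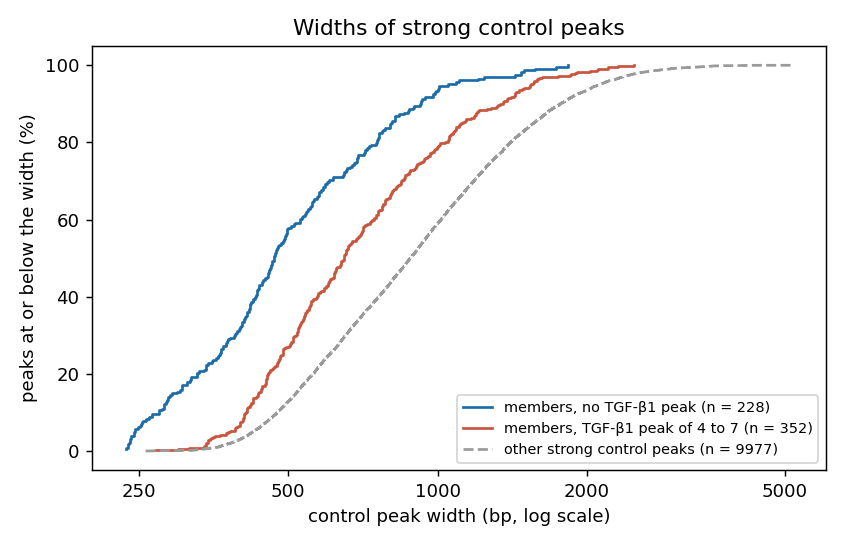
Cumulative share of peaks (y axis, percent) at or below a given control peak width (x axis, bp, log scale). The curve of the 228 members without a TGF-β1 peak lies left of that of the 352 with a weak peak, and both lie left of the 9977 other strong peaks, with medians of 468, 648 and 881 bp.

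Members lay at the ends of protein-coding genes less often than the other strong control peaks did. A gene end is an annotated transcription start or end, and the midpoint of the peak had to lie within 1 kb of it. This held for 74 of 580 members (12.8%, 10.2 to 15.8) and for 2535 of 9977 others (25.4%, 24.6 to 26.3). The order was the same at each height, with 12.7% (9.46 to 16.5) and 24.6% (23.1 to 26.2) at 17 to 19, 13.5% (8.83 to 19.4) and 24.4% (23.2 to 25.8) at 20 to 29, and 9.68% (2.04 to 25.8) and 27.8% (26.2 to 29.6) at 30 or more. The intervals were apart in each class, but only just for the 31 highest members. Without the 10 crowded bins described further on, 3 of the 17 members left in that class were at gene ends (17.6%, 3.80 to 43.4), an interval that spans the 27.9% of the others. The intervals cover counting error only, and without replicate libraries the difference was not tested. Of the other members, 245 lay inside a protein-coding gene (42.2%, against 42.5% of the other strong peaks), 65 only in a long non-coding RNA gene (11.2% against 9.04%) and 196 in none of these (33.8% against 23%). Away from chromosome 8, 39.7% of 532 members were more than 50 kb from the nearest protein-coding transcription start (35.5 to 44.0), against 33.0% of 9581 others (32.0 to 33.9).

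**Figure D3:**
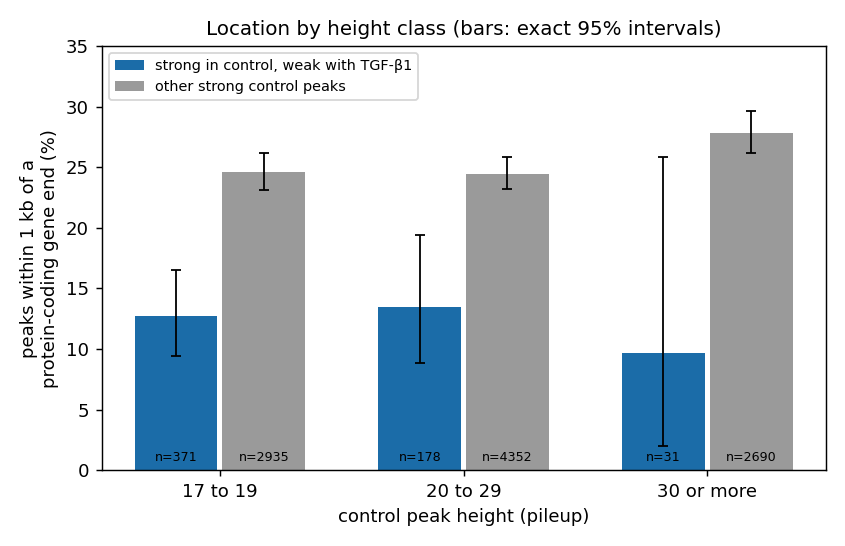
Share of peaks within 1 kb of a protein-coding gene end (y axis, percent) by control height class (x axis), for members (blue) and the other strong control peaks (grey). Whiskers are exact binomial 95% intervals, and the members stand at 9.68% to 13.5% against 24.4% to 27.8% for the others.

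Counted by gene, members overlapped the 1 kb windows at the ends of 97 of 19974 protein-coding genes, 0.486% of them. The member was at the start of the gene in 60 cases, at its end in 14 and at both in 3 short genes, and 20 genes had no strand in the sequence table. For 13 of the 97 the TGF-β1 list held no gene-end peak at all, and for 14 it held a gene-end peak of height 15 or more at another place. Another strong control peak that was not a member lay at an end of 13 of the 97 genes.

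The highest gene-end members had no TGF-β1 counterpart. The YJU2 member at chr19:4246775-4247698 had a control height of 76, and the highest TGF-β1 gene-end peak of the gene was at 3. CYSLTR2, a receptor for cysteinyl leukotrienes, had 45 at its start on chromosome 13, and the nearest TGF-β1 peak was 8745 bp away. PAXBP1, which encodes a PAX-binding protein, had 41 at chr21:32771506-32772980, with a gap of 8274 bp. ZNF703, a zinc finger corepressor gene, had 37 at chr8:37700704-37701466, with a gap of 6104 bp, and ELMOD1 had 26 on chromosome 11, with a gap of 3576 bp. Apart from YJU2, these genes had no TGF-β1 gene-end peak. INTS5, a subunit of the Integrator complex that processes nascent RNA, had 22 and a gap of 5577 bp, and the TGF-β1 list reached 11 at its ends. Gene-end members without overlap were also at LOC101929627 (26) and LOC124902048 (23) on chromosome 8 and at 2 USP17L copies, in repeated arrays where a height at a single copy is uncertain.

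Other gene-end members overlapped a weak TGF-β1 peak. MAN2A1, a Golgi mannosidase of N-glycan processing, had a control height of 24 and a TGF-β1 height of 6 at its start, chr5:109688589-109690079. Members of control height 22 to 24 also lay at the starts of C15orf61 (24 and 7), KCTD5, an adaptor of cullin-3 ligases (23 and 7), TMEM139 (23 and 7), CABLES1 (22 and 5) and LRRC31 (22 and 6). IFT88, a subunit of the intraflagellar transport machinery of cilia, had 21 and 7 at chr13:20566605-20567887. ZMPSTE24, the protease that matures prelamin A, had 21 and 7 at chr1:40257907-40259337. The same 21 was found at ENGASE, a cytosolic glycosidase, and TOMM40L, each with 7, at BIK, a BH3-only apoptosis gene, with 6, and at the end of ZCCHC17 with 7. These genes do not form a list fixed for this work, and no shared theme was tested.

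At a few genes another strong control peak lay at a gene end as well as the member. ANAPC13, a subunit of the anaphase-promoting complex, had a member of height 24 at its end with no TGF-β1 overlap, while its highest TGF-β1 gene-end peak was at 22. ID1, an inhibitor of basic helix-loop-helix factors and a known TGF-β and BMP target, had a member of 23 beyond its end at chr20:31607214-31609701, with a weak TGF-β1 peak of 7. Another strong control peak of ID1 was at 24, and TGF-β1 peaks at its ends reached 39, so the gene was strong in both lists. CABLES1 and IQGAP3, the latter chosen after its values were seen, also had other strong control gene-end peaks, of 37 and 38. Their highest TGF-β1 gene-end peaks were at 12 and 30, so CABLES1, unlike ID1, had none of 15 or more.

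Of 207 genes in 9 lists of pathways, ID1 was the 1 gene with a member at an end, 0.483% against 0.486% of all protein-coding genes. The lists were glycolysis and glucose uptake with 26 genes, TGF-β signalling with 30, matrix and fibrosis with 25, autophagy with 22, hypoxia response with 17, forkhead factors and FOXK partners with 25, proximal tubule transporters and enzymes with 21, epithelial junction and mesenchymal transition with 17 and the cell cycle with 24. Apart from TGF-β signalling, each had 0 genes with a member at an end. Strong control peaks that were not members lay at ends of 3329 of the 19974 protein-coding genes (16.7%). In the lists they lay at ends of 8 glycolysis, 11 TGF-β signalling, 4 matrix, 14 autophagy, 10 hypoxia, 8 forkhead, 2 proximal tubule, 4 junction and transition and 12 cell cycle genes. With the window widened to the whole gene and 10 kb on each side, 7 of the 207 genes had a member (3.38%), against 474 of all 19974 (2.37%).

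The members in the genes named here had control heights of 17 to 23. TGFBR3, the type III TGF-β receptor, held a member of 18 and 6 inside the gene at chr1:91826880-91827425. CDH6, a cadherin of the developing proximal tubule, held 20 and 7, and CDH2, N-cadherin, held 19 and 6. FOXP1, another forkhead factor, held 17 and 5, and a member of 17 without overlap lay 2307 bp from ADM, the adrenomedullin gene. Except for ID1, none of these members overlapped the 1 kb window at an end of the listed gene. The ID1 member reached that window with its edge, and its midpoint lay 1948 bp from the gene. The distance from ADM is also from the midpoint.

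Of the 12 highest members with a weak TGF-β1 counterpart, ties included, 7 lay inside a protein-coding gene, as did 187 of all 352 (53.1%) and 57.0% of the other strong peaks. GFOD1 on chromosome 6 held 40 and 7. TAF8, a subunit of TFIID, held 34 and 7, and AOPEP, an aminopeptidase, held 34 and 5. TBC1D9 on chromosome 4 held 33 and 6, and 33 and 7 lay 60467 bp from KLHL13 on the X chromosome. A member of 30 and 7 lay 12305 bp from ELOVL6, a fatty acid elongase, and members of the same heights lay inside RPA3, a subunit of the single-strand binding protein RPA, and POLA1, the catalytic subunit of DNA polymerase alpha. At 29 were members in IGF2BP3, an RNA-binding protein, with 6, and near PAG1 with 4, DIRAS2 with 6 and MEGF9 with 7. Whether a member inside a gene lay in an exon or an intron was not analysed here.

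Of the 474 protein-coding genes with a member inside or within 10 kb, 20 had 2 or 3 members. Of these 20, 11 were outside the crowded bins described next. Neighbouring genes can share the same members, as TAF11L8 and TAF11L9 did, and some of the genes are long, such as GPHN with 1227 kb. The same count was not made for the other strong peaks, so it is not read as a trait of members. PPARGC1A, a coactivator of mitochondrial biogenesis, had 2 members on its lower-coordinate flank, with heights of 17 and 6 and of 21 and 7. FTO, an RNA demethylase, held 2 members of 19 and 22, each with a TGF-β1 height of 7. Genes chosen after their values were seen include FGF2, SMURF1, a ubiquitin ligase that acts on the TGF-β receptor, and SREBF2, a regulator of cholesterol synthesis, which held members of 24 and 6, 24 and 7 and 23 and 5.

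The members without a TGF-β1 counterpart were in part grouped among tandem gene copies and in blocks with no RefSeq gene. Members fell in 454 bins of 1 Mb, of which 365 held 1 member, 79 held 2 and 10 held 3 or more. These 10 crowded bins, which the members themselves define, held 57 members (9.83%, 7.53 to 12.5) and 82 of the other strong peaks (0.822%, 0.654 to 1.02), and 54 of the 57 had no overlapping TGF-β1 peak. In 7 of the 10, singled out after their contents were seen, the members lay among tandem copies of a gene family or in a block with no RefSeq gene, except for 2 of the 8 in the chromosome 1 bin that lay away from the 5S copies. Those 7 held 48 members, all 48 without overlap, and 24 of the 48 were under 300 bp wide. Of the 23 members of height 30 or more without a TGF-β1 peak, 14 were in these 7 bins. Without the 10 bins 523 members remained, of which 33.3% had no overlap and 12.8% were at gene ends.

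The largest group, 18 members of height 18 to 47, lay within 174 kb of chromosome 8 (chr8:85648419-85822332) among REXO1L pseudogenes and the entries LOC101929601, LOC101929627 and LOC124902048. The bin held 25 strong control peaks in all, and its TGF-β1 list held 14 with a height of at least 15, up to 49. By the rule, none of these 14 could overlap a member. On chromosome 4, 9 members of height 17 to 80 lay within chr4:51131999-51809696, a stretch with no RefSeq gene, and 15 TGF-β1 peaks of 15 or more, up to 69, lay in the same bin. A further 4 members, up to 31, lay among the USP17L deubiquitinase copies at chr4:9244988-9368966, among them the gene-end members of USP17L17 (22) and USP17L22 (21). The TAF11L copies of chromosome 5 held 3 members of 18 to 20, the SNAR small RNA copies of chromosome 19 held 3 of 17 to 22, and another gene-free block at chr4:49760729-49934089 held 3 of 17 to 39. Near-identical copies can share reads, so a height at a single copy is uncertain. Whether the gene-free blocks of chromosome 4 hold repeated sequence was not examined.

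**Figure D4:**
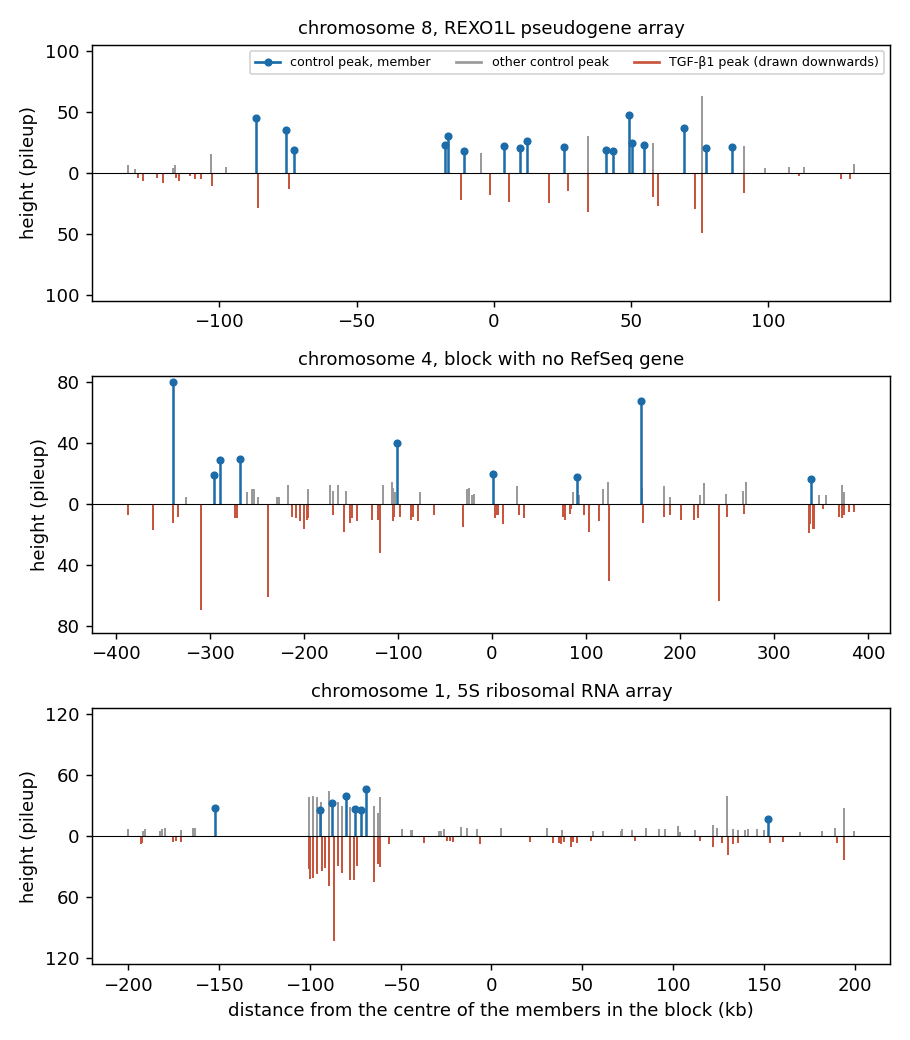
Peak heights (y axis, pileup; control upwards, TGF-β1 downwards) along the 3 bins with the most members, by distance from the centre of the members (x axis, kb). Members (blue, with dots) number 18, 9 and 8 from top to bottom, and high TGF-β1 peaks (red) stand between them at other positions. By the rule, no TGF-β1 peak above 7 can overlap a member.

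In the 5S ribosomal RNA array of chromosome 1, heights were read copy by copy. The 5S genes, transcribed by RNA polymerase III, stand in tandem, and the reference holds 17 copies named RNA5S1 to RNA5S17. The bin held 8 members of height 17 to 46, and 6 of the 17 copies had a member within 1 kb. Within 1 kb, 14 copies had a control peak of 17 or more, 13 had such a TGF-β1 peak and 11 had both. At RNA5S9, RNA5S13 and RNA5S14 the control heights were 39, 26 and 46 and no TGF-β1 peak was within 1 kb. At RNA5S4 and RNA5S11 it was the other way round, with TGF-β1 heights of 31 and 43 and no control peak. RNA5S6 had a member of 33 and, without touching it, a TGF-β1 peak of 103. RNA5S5, with no member, had 44 and 49.

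**Figure D5:**
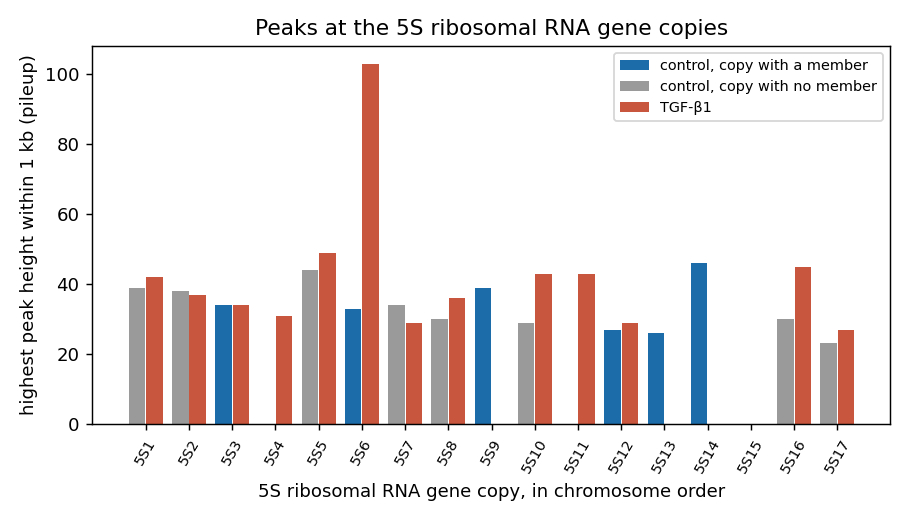
Highest peak within 1 kb (y axis, pileup) of each of the 17 copies of the 5S ribosomal RNA gene (x axis, in chromosome order), for control (blue with a member nearby, grey without) and TGF-β1 (red). Copies differ in which list has a peak, RNA5S6 has the highest TGF-β1 peak, 103, and the control bar of RNA5S3, 34, is a peak beside its member of 26.

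Several of the highest members lay outside the crowded bins, and whether other copies share reads with these sites was not examined. The highest, 466, lay at chr18:108038-108504 in the long non-coding RNA gene LOC112268408, 7921 bp from the nearest TGF-β1 peak. The next, 298, lay at chr10:133688234-133688804, 3327 bp from the DUX4-like pseudogene DUX4L20, with a TGF-β1 peak of 19 within 10 kb. A member of 93 at chr1:121771624-121771861 was 308614 bp from the nearest protein-coding entry, and a TGF-β1 peak of 103 lay within 10 kb of it without overlap. Inside genes were a member of 163 in ALLC, which encodes an allantoicase, at chr2:3651039-3651442, and a member of 74 in PPP5C, a serine/threonine phosphatase, at chr19:46389361-46389748. The others of the 10 highest without overlap were those of YJU2 and of the chromosome 1, 4 and 8 blocks given above. None of these had a TGF-β1 peak nearer than 450 bp.

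The share of strong control peaks that were members varied between chromosomes, from 3.73% on chromosome 12 (2.41 to 5.50) to 12.8% on chromosome 13 (7.50 to 20.0), where 16 of 125 were members. Chromosome 8 had 48 members of 444 strong peaks (10.8%, 8.08 to 14.1), and 6.57% without the crowded bins. The difference between chromosomes was not tested. In the 1 Mb bins left out by the rule, 285 of 513 strong control peaks met the same heights (55.6%, 51.1 to 59.9), and 277 of the 285 had no overlapping TGF-β1 peak.

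The same rule turned round, with a TGF-β1 minimum of 17 and a control maximum of 7, gave 295 of 8034 peaks (3.67%, 3.27 to 4.11). A TGF-β1 minimum of 15 makes the list of strong TGF-β1 peaks about as long as that of strong control peaks. It gave 556 of 10684 (5.20%, 4.79 to 5.64), beside the 5.49% of members. The control maximum stayed at 7, so this version asked for a smaller difference in height than the rule for members. At gene ends were 15 of the 295 (5.08%, 2.87 to 8.25), fewer in proportion than the 74 of 580 members, and the intervals of these shares were apart. The gene-end share of the other strong TGF-β1 peaks was not counted, so whether the 295 differ from them is not known. No overlapping control peak was found at 183 of the 295 (62.0%, 56.2 to 67.6), against 39.3% of members without a TGF-β1 peak. With a TGF-β1 minimum of 15 it was 309 of 556 (55.6%, 51.3 to 59.8). These shares depend on the height limits. The lists searched also differed, with 381673 control and 439123 TGF-β1 peaks. Of the 295, 36 lay in the 10 crowded bins (12.2%, 8.70 to 16.5), among them 7 in the chromosome 8 array, 10 in the chromosome 4 block and 5 in the bin of the 5S array. Most of these bins thus held unmatched high peaks of both lists, but the bin chr8:119000001-120000000 held 0 of the 295. Each bin held members by its definition. The share of all strong TGF-β1 peaks that lay in these bins is not given.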

How the data were processed

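Each condition had 1 library of FOXK1 immunoprecipitation and 1 input. Per the submitters' processing notes, bcl2fastq 2.17, MACS2 2.1.1.20160309 and the build hg38 were used; the aligner, the peak threshold and how the inputs entered are not given in the sources used here. The authors deposited peak lists with 1 value a peak, read here as the pileup signal because all values are whole and start at 3. Library depth is therefore unknown. Starts were read as counted from 0, which may place printed starts 1 bp away.

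From these lists Python 3.11.15 with pandas 2.3.3 and scipy 1.17.1 took control peaks of height 17 or more and the highest TGF-β1 peak overlapping each by at least 1 bp. Gene positions, promoter sequences and names came from RefSeq GRCh38.p14. A peak was at a gene end when its midpoint lay within 1 kb of it, and a gene was named when a peak overlapped that window. Exact binomial 95% intervals cover counting error only. There were no replicates and no test was made. The procedure was tested on simulated peaks with known answers.

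Peaks were named when among the 10 highest members without, and the 10 highest with, an overlapping TGF-β1 peak, among the 25 highest at gene ends (all ties included), at ends of listed genes, highest in the 3 fullest bins, or just outside a threshold. Members, lists and rules were chosen with earlier results of these data known. Some peaks that were counted or that meet these rules, 1 of them at a gene end, are not reported here.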

Additional observations from a re-analysis of the deposited data

How the results depend on the processing

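The number of members, 580, rests on the height limits: it was 1522 with a TGF-β1 height of 10 or lower, 286 with 5 or lower, 209 with a control minimum of 20 and 68 with 25. The share without an overlapping TGF-β1 peak, 39.3%, was 15% and 79.7% with those TGF-β1 limits, and 47.4% and 63.2% with the higher control minimums. It was 34% when TGF-β1 peaks within 500 bp counted as overlapping and 44.7% when the overlap had to cover 50% of the shorter peak. It was 58.4% with the bins lacking protein-coding genes kept and 33.3% without the crowded bins, the last chosen after seeing the data. The share at gene ends, 12.8%, was 17.5% with a TGF-β1 height of 10 or lower, 8.55% with those bins kept, 8.82% with a minimum of 25 and 18.8% within 2 kb. The share in crowded bins, 9.83%, was 28.8% with 10 or lower, 18.9% with 5 or lower, 36.2% with the bins kept, 14.4% with a minimum of 20 and 26.5% with 25. The cause of these differences was not tested. No paired analysis was possible because each condition had 1 library. Without the depth of the libraries, unequal depth cannot be told apart from a difference in FOXK1 signal.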
